A study of Mus musculus with 6 samples.

Results

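The 9 genes described here encode the enzymes that methylate lysine 9 of histone H3 and the proteins that read that methylation: the methyltransferase genes Ehmt1, Ehmt2, Setdb1, Setdb2 and Suv39h2, the heterochromatin protein 1 (HP1) genes Cbx1, Cbx3 and Cbx5, and Trim28, a corepressor gene. They were taken by name, as 9 of 21887 protein-coding RefSeq genes, and every deposited peak in the gene and 10 kb either side was counted to it, which gave 30 of the 48419 peaks used from 6 lists. The assay was CUT&RUN, which cuts out DNA beside a histone mark with a nuclease guided by an antibody. The tissue was gastrocnemius, a calf muscle, from male C57BL/6 mice aged 4 weeks. Conditional knockout mice (CKO) were Phf2 flox/flox with Acta1 Cre, and control mice (Ctrl) were Phf2 flox/flox without Cre, so every animal carried floxed Phf2 alleles. The Acta1 promoter, that of skeletal muscle actin, drives the Cre in muscle fibres, and the other cell types of the muscle are also in the tissue. There was 1 library each for H3K9me2 in CKO, H3K9me2 in Ctrl, input in CKO and H3K4me3 in Ctrl, and there were 2 inputs in Ctrl. Although the title of the H3K4me3 library says wild type, its genotype is that of Ctrl. No label says whether animals were pooled or whether libraries came from separate animals. The loss of Phf2 itself cannot be checked in lists of histone peaks.

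PHF2, the protein whose gene is targeted in CKO, is described as a demethylase of H3K9me2, so these genes encode the opposing activity and the readers of the mark. EHMT1 (GLP) and EHMT2 (G9a) work as a complex that deposits H3K9me2 in euchromatin, SETDB1 is brought to chromatin by TRIM28 and deposits H3K9me3, and SUV39H2 deposits H3K9me3 in pericentric heterochromatin. HP1 proteins bind methylated H3K9 through a chromodomain and compact chromatin. H3K4me3 marks active promoters and H3K9me2 is a repressive mark, and the peaks below describe the chromatin of these genes, not the amount or activity of their proteins.

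Each list gives a fold for each peak, which is the authors' ratio of the summit to its local background. From the fold and the deposited p-value the number of fragments at the summit was recovered, and its exact 95% Poisson interval is given in brackets, which covers counting error alone. The median summit held 9 fragments in the CKO H3K9me2 list (12832 peaks), 6 in Ctrl H3K9me2 (3703), 7 in the CKO input (10931), 6 in each Ctrl input (3071 and 1309) and 52 in H3K4me3 (16573). The CKO lists were the longer ones, by 3.47 times for H3K9me2 and by 3.56 and 8.35 times for the inputs, at a background coverage 1.39, 1.26 and 1.27 times as high. Background coverage here is the lowest local background recovered at any peak of a list (0.544 fragments for H3K9me2 in CKO, 0.391 in Ctrl). It stands in for sequencing depth, which was not measured. With 1 library for each mark and genotype no difference between CKO and Ctrl has a replicate check, and none was tested. Of 10 skeletal muscle marker genes, 7 had a start site in the RefSeq promoter table and 3 of these (Des, Ryr1 and Pvalb) had an H3K4me3 peak within 2 kb of it, while Acta1, Ckm, Ttn and Myh4 had none. Such a peak was near the start of 2 of 2 endothelial markers with a start site, 2 of 3 satellite cell markers, 1 of 2 liver markers and 0 of 4 blood and immune markers. The 1 fibroadipogenic marker with a start site had none, and Schwann cell markers had no start site in the table. Some of these peaks were small: endothelial Tek had 6 fragments, satellite Calcr 9, liver Apoa1 7 and muscle Ryr1 13. In the gene and 10 kb either side, 8 of 10 muscle, 2 of 4 endothelial, 2 of 4 fibroadipogenic and 3 of 3 satellite markers had an H3K4me3 peak. So did 2 of 4 blood and immune, 1 of 3 Schwann and 1 of 3 liver markers, beside 68.1% of all protein-coding genes.

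The promoters that carry the results are shown here, each 250 bases before to 50 after the RefSeq start site of GRCm38.p6 (mm10), 5′ to 3′ in the direction of transcription. Trim28 held the H3K9me2 peak, Setdb1 had the highest H3K4me3 fold of the 9 genes, Ehmt2 the lowest, and Cbx5 had a peak at each of its start sites. Capitals mark GGGCGG (the GC box), CCGGAAG (Ets) and CCAAT, on either strand.
Trim28, chr7:13023902-13024201, plus strand: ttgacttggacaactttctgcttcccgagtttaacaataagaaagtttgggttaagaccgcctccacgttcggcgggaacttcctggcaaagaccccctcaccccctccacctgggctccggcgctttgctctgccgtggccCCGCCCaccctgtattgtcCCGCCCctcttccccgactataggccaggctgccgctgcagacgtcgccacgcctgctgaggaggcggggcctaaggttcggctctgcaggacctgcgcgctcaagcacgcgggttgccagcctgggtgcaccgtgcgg
Setdb1, chr3:95357153-95357452, minus strand: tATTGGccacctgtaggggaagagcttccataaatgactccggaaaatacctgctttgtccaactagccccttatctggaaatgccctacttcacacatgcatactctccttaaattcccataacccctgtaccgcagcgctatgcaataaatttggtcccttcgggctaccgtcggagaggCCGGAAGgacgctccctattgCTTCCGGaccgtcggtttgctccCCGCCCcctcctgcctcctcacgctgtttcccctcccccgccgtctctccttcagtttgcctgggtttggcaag
Ehmt2, the upstream start, chr17:34898224-34898523, plus strand: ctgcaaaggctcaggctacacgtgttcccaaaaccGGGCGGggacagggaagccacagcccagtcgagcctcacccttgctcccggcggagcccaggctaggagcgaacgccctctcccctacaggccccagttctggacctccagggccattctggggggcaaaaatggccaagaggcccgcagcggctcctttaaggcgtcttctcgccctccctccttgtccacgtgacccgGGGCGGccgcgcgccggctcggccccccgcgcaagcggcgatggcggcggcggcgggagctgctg
Cbx5, the upstream start, chr15:103239803-103240102, minus strand: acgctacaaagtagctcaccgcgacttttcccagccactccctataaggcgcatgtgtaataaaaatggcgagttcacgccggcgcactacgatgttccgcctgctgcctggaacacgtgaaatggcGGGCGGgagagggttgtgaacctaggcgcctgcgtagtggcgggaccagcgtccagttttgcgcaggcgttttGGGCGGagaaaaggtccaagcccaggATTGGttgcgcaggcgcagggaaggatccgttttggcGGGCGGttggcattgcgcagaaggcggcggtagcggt
Cbx5, the downstream start, chr15:103215303-103215602, minus strand: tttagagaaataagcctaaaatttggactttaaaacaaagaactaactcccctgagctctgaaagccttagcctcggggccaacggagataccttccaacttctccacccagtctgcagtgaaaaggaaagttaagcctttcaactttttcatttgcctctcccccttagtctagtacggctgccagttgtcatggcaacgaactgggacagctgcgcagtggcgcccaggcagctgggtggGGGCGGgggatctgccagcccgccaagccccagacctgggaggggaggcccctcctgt

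The Trim28 promoter lay wholly under its H3K4me3 peak, and the H3K9me2 peak of CKO covered bases 183 to 300, which include the start site. It holds 2 GC boxes, the Setdb1 promoter 1 GC box, 2 Ets matches and 1 CCAAT, and the upstream Cbx5 promoter 3 GC boxes and 1 CCAAT. The 9 genes have 12 start sites in the table. Their promoters had a median of 67.3% G and C (range 52.7% to 82.7%) and 29 CG dinucleotides (8 to 40), where the 12018 promoters under any H3K4me3 peak had medians of 64% and 24 and the other 20833 had 48% and 4. The downstream Cbx5 promoter was the one with 8 CG dinucleotides. GGGCGG was in 10 of 12, against 73.3% of promoters under H3K4me3 and 35.7% of all 32851. CCAAT was in 3 of 12 (36.5% and 37.4%), CCGGAAG in 1 of 12 (19.3% and 8.86%) and CANNTG, the E-box, in 10 of 12 (60% and 72.3%). TATAAA was in 0 of 12 (5.28% and 13.6%), and so was the Nrf1 motif (2.29% and 0.971%). CCGGAAG occurred in the Setdb1 promoter alone among the 12. These are matches of letters, not binding sites.

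H3K4me3 in Ctrl muscle lay over a start site of each of the 9 genes. Over all genes with a start site in the table, 53.6% had such a peak and 60.2% had a peak within 2 kb, and 68.1% of all protein-coding genes had one in the gene and 10 kb either side. The highest peaks of the 9 genes had a median fold of 12.0 (range 4.31 to 19.5), where the 10535 genes with a peak within 2 kb had a median of 11.2 and quartiles of 8.64 and 14.1. Their median summit held 77 fragments against 68 for those genes, and their median width was 953 bp against 847 bp. The 9 genes thus spread over nearly the whole range of promoters, at fold percentiles from 1.51 to 97.0. With peaks under the median of the H3K4me3 list dropped, 7 of the 9 (not Ehmt2 and Cbx3) had one within 2 kb, against 37.6% of genes.

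Among the methyltransferases, the Setdb1 peak (chr3:95356599-95357252), which ran from 50 bp before to 603 bp past the start site, had a fold of 19.5 over 654 bp with 110 fragments at the summit (90.4 to 133). Setdb2 (chr14:59440475-59441427), which encodes a relative of SETDB1, had a fold of 14.8 over 953 bp with 148 fragments (125 to 174). Suv39h2 (chr2:3474365-3475319) had a fold of 12.0 over 955 bp with 76 fragments (59.9 to 95.1). Ehmt1 (chr2:24918778-24919892) also had 76 fragments, over 1115 bp, and its fold was 10.1. Summits at Suv39h2 and Ehmt1 could not be told apart by count, and the local background was 5.44 fragments at Suv39h2 and 6.63 at Ehmt1.

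Ehmt2, the partner of Ehmt1, was the lowest of the 9 by fold. Its peak at the upstream start (chr17:34898202-34898568) was 367 bp wide with a fold of 4.31 and 45 fragments (32.8 to 60.2) over a local background of 9.68, and among genes it stood at the percentile 1.51 for fold and 31.2 for fragments. A further Ehmt2 peak, from 355 to 968 bp past the downstream start site, had a fold of 2.28 with 20 fragments (12.2 to 30.9), the lowest fold of all 16573 H3K4me3 peaks. The downstream start itself, 496 bp from the upstream one, lay under neither peak. A fold is relative to local background, and this was 8.23 fragments at the further peak. At the start of Zbtb12, an upstream zinc finger gene, the peak had 72 fragments over a background of 8.63.

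Among the HP1 genes, Cbx1 (HP1 beta, chr11:96789031-96789766) had a fold of 14.7 with 77 fragments (60.8 to 96.2), and Cbx3 (HP1 gamma, chr6:51468774-51471290) had 78 fragments (61.7 to 97.3) at a fold of 5.12. The summits of Cbx1 and Cbx3 were of like height, and their local backgrounds were 4.30 and 14.4 fragments. The Cbx3 peak was 2517 bp wide, at the width percentile 99.8 among genes, and covered both Cbx3 start sites and the start of Hnrnpa2b1, a splicing factor gene. Cbx5 (HP1 alpha) had a peak at each of its start sites, which lie 24500 bp apart. The upstream peak (chr15:103239191-103240057) had 58 fragments (44.0 to 75.0) at a fold of 11.9, and the downstream peak (chr15:103215074-103215534) had 30 fragments (20.2 to 42.8) at a fold of 14.8 over a background of 1.10. By count the upstream Cbx5 start was the higher, and by fold the downstream start was.

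Trim28, the corepressor that HP1 and SETDB1 bind, had the tallest H3K4me3 summit of the 9 (chr7:13023869-13025117), with 155 fragments (132 to 181), at the percentile 99.2 among genes. Its fold was 12.0, over a background of 12.0 fragments and a width of 1249 bp. Ordered by fragments, Trim28, Setdb2 and Setdb1 lead, Cbx3, Cbx1, Suv39h2 and Ehmt1 follow with 76 to 78, and the upstream Cbx5 start, Ehmt2 and the downstream Cbx5 start come last. The intervals of neighbours in this order overlap throughout.

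**Figure D1:**
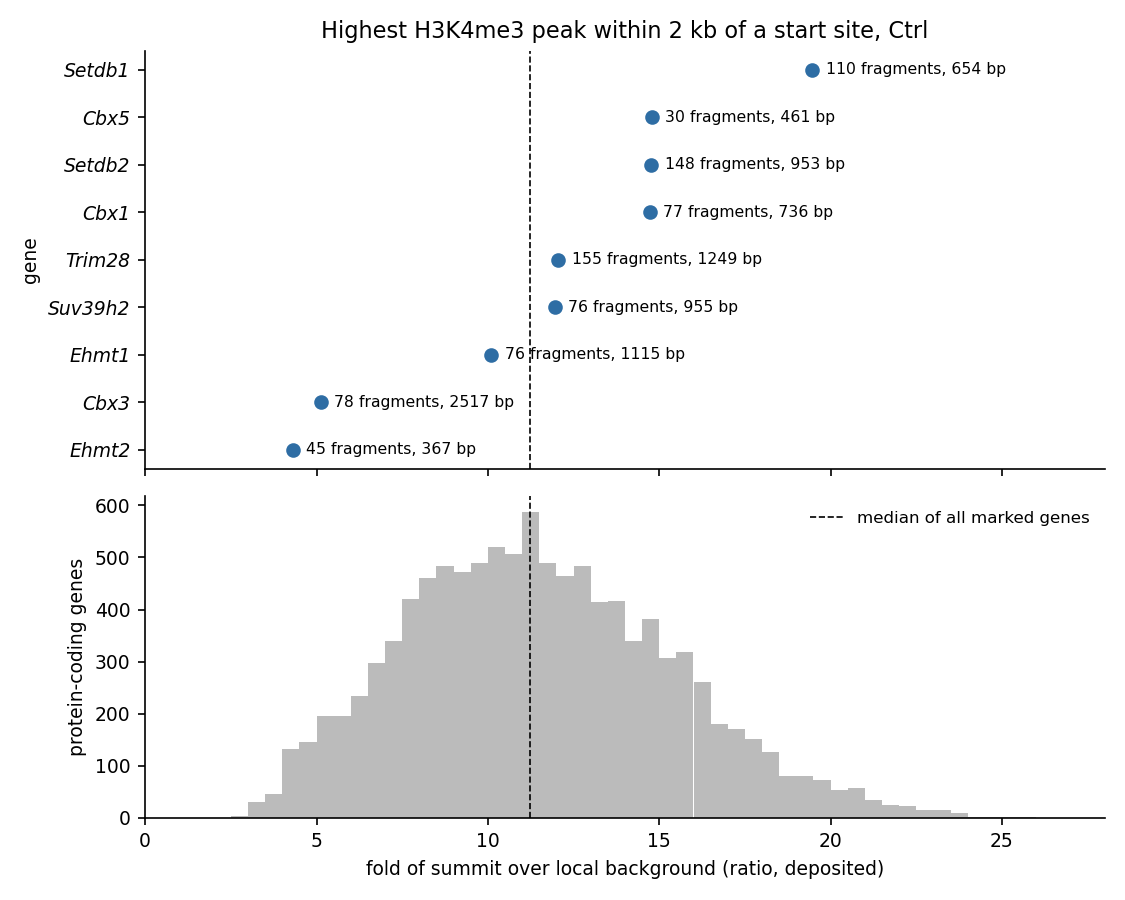
The upper panel plots the deposited fold (x axis, ratio) of the highest H3K4me3 peak within 2 kb of a start site for each of the 9 genes, with its summit fragments and width, and the lower panel the same fold over all 10535 protein-coding genes that have one. The 9 genes run from 4.31 (Ehmt2) to 19.5 (Setdb1) around the median of 11.2, and Cbx1 and Cbx3 have 77 and 78 fragments at folds of 14.7 and 5.12.

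Of the 17 H3K4me3 peaks in the 9 windows, 10 lay over a start site of the 9 genes and 7 elsewhere. Of these 7, those over or beside the start of another gene were at Zbtb12, at Cers2 and Anxa9 next to Setdb1 (fold 10.7, 101 fragments), at Chmp2a (fold 3.25, 33 fragments) and at Ube2m (fold 11.3, 116 fragments) near Trim28. A peak in the Ehmt1 body, 80870 bp past the start site, had a fold of 4.72 on 6 fragments (2.20 to 13.1). A peak beyond the far end of Cbx5 had a fold of 8.22 with 24 fragments (15.4 to 35.7) and lay 19258 bp from the nearest start site in the table, that of Smug1.

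Several of the 9 genes share their promoter region with a neighbour. A start site of another protein-coding gene on the opposite strand lay within 1 kb of 4 of the 9, against 9.61% of genes, a comparison made after the map had been seen. Setdb2 and Cab39l start 83 bp apart, Cbx5 and Hnrnpa1 545 bp apart, and Cbx3 and Hnrnpa2b1 722 bp apart, head to head. The predicted gene Gm31649 overlaps the start of Trim28, with start sites 437 bp apart. The H3K4me3 peaks of Setdb2, Cbx3 and Trim28 covered the start site of the neighbour too and cannot be assigned to a single gene of the pair. The protein-coding gene Gm45935 also starts at the Setdb2 start site, under both the H3K4me3 and the CKO input peak there. In the promoter table, the opposite-strand neighbour's start was not reached by the H3K9me2 peak of Trim28 or the CKO input peaks of Setdb2 and Cbx3. Nor was it by the H3K4me3 and CKO input peaks at the upstream Cbx5 start. By gene extent, Hnrnpa1 begins at chr15:103239943, inside that H3K4me3 peak, and Cab39l at chr14:59440934, inside the Setdb2 input peak. Gm31649 spans chr7:13023708-13024589, which holds the whole H3K9me2 peak at the Trim28 start. Those peaks cannot be assigned to a single gene either. Of all genes with such a neighbour, 97% had an H3K4me3 peak within 2 kb, against 56.3% of those without.

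H3K9me2 was profiled in both genotypes, which sets CKO muscle, where the Cre targets Phf2 in the fibres, beside Ctrl muscle. In CKO, 1 of the 9 genes, Trim28, had an H3K9me2 peak in its window, and in Ctrl none did. Over all protein-coding genes the shares were 19.4% in CKO and 6.34% in Ctrl, and nothing particular to the 9 genes is read from the counts of 1 and 0. The peak over the Trim28 start site (chr7:13024084-13024508) had a fold of 6.20 on 9 fragments (4.12 to 17.1), where the local background was 0.613 fragments. Its fold stood at the percentile 70.8 and its fragments at 59.2 of the CKO list. It was 425 bp wide, lay wholly inside the H3K4me3 peak of Ctrl with the summits 169 bp apart, and overlapped no input peak. In CKO, 12.5% of all genes had an H3K9me2 peak free of input in the window and 10.1% had one on H3K4me3. Such input-free peaks lay within 2 kb of a start site in 3.78% of genes in CKO and 1.01% in Ctrl.

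A further CKO H3K9me2 peak of the Trim28 window (chr7:13037928-13038288) lay over the start of Ube2m, the gene of a NEDD8-conjugating enzyme, 14046 bp from the Trim28 start. It had a fold of 3.89 on 5 fragments (1.62 to 11.7) and overlapped a CKO input peak with 8 fragments. At the 9 genes the Ctrl list had no peak, and its peaks start at 4 fragments. Scaled by the ratio of background coverage, the 9 fragments at Trim28 would be 6.47 at the background coverage of the Ctrl list and the 5 at Ube2m 3.60. The Trim28 peak stayed at q of 1e-05 or less, where 7.48% of all genes had one in CKO. With both H3K9me2 lists shortened to 3703 peaks by q, Trim28 lost its peak and none of the 9 genes had one, where 5.64% of all genes did in CKO. In windows of 20 kb, Cbx5 was added through a peak of fold 6.48 at 15.3 kb from the gene, and 24.7% of all genes had a CKO peak. In whole muscle, fewer nuclei with the mark and less of the mark per nucleus cannot be told apart.

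H3K4me3 peaks with many fragments carried other peaks more often over the whole genome. Of 8889 H3K4me3 peaks over a protein-coding start site, 13.6% overlapped an H3K9me2 peak in CKO and 3.52% in Ctrl. Among the 2170 such peaks with 97 or more fragments, those of Trim28, Setdb2 and Setdb1 included, the shares were 26.1% in CKO and 7.51% in Ctrl. Whether H3K4me3 height has a part in the Trim28 peak was not tested.

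**Figure D2:**
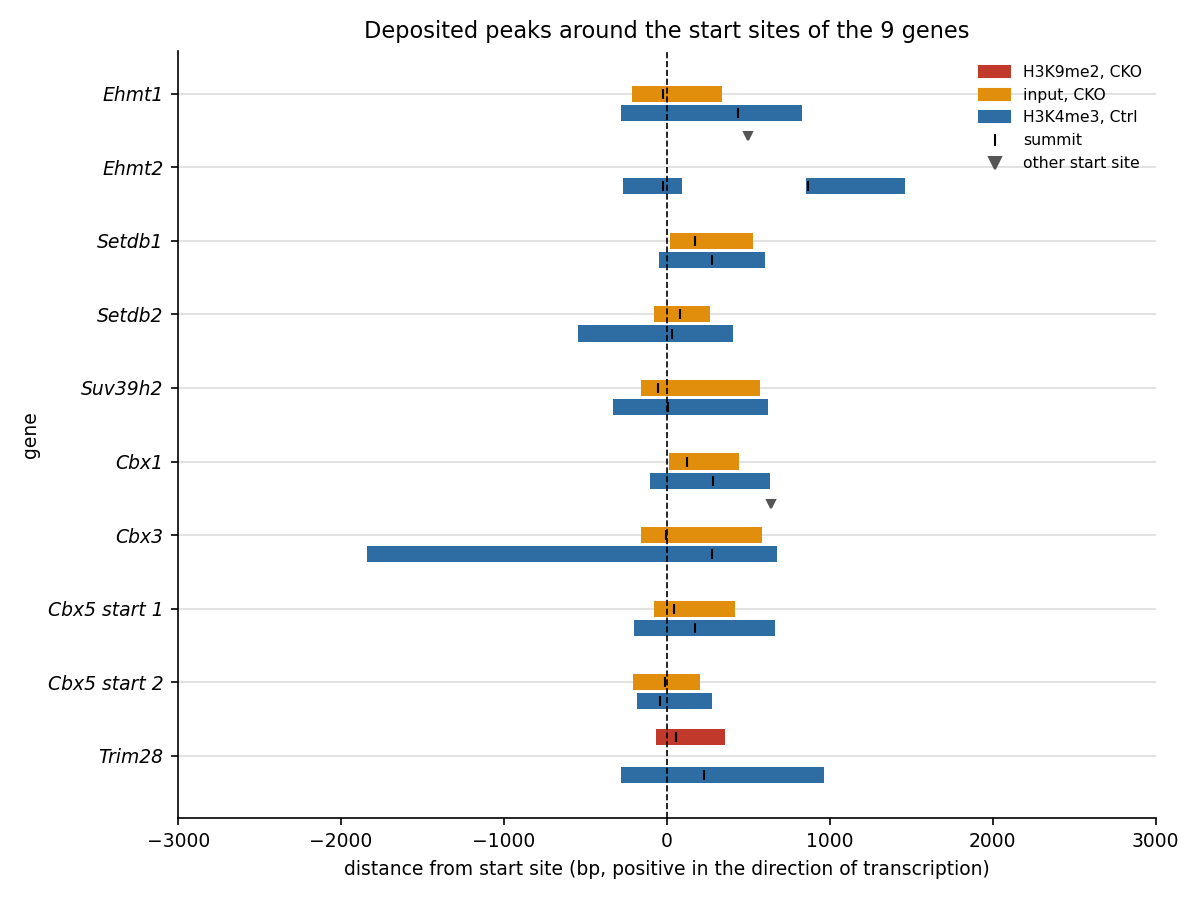
Each row is a start site of the 9 genes, with distance in bp on the x axis, and bars give the extent of H3K9me2 peaks in CKO, input peaks in CKO and H3K4me3 peaks in Ctrl, with ticks at the summits and triangles at other start sites of the gene. H3K4me3 lies over the site at 0 in every row, input peaks over or just past the start of all but Ehmt2 and Trim28, and H3K9me2 at Trim28 alone. The lists of Ctrl H3K9me2 and of the Ctrl inputs had no peak to draw.

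The input of CKO had a peak in the window of each of the 9 genes, and neither Ctrl input had one in any. Over all protein-coding genes the shares were 39.8% for the CKO input, 11.8% for Ctrl input 1 and 5.37% for Ctrl input 2, or 15.5% for either Ctrl input. Among genes with H3K4me3 within 2 kb of a start site the CKO input had 53.6% and either Ctrl input 20.8%. Of the 11 CKO input peaks, 10 overlapped an H3K4me3 peak, as did 5467 of the 10931 in the whole CKO input list. The labels do not say how the input was prepared.

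The CKO input peaks sat at promoters. Within 2 kb of a start site, 7 of the 9 genes had one, where 25.9% of genes did and 40% of genes with H3K4me3 there. The largest by fold was at the downstream Cbx5 start (7.99, 10 fragments, 4.80 to 18.4), and the upstream Cbx5 start had the smallest (4.10, 5 fragments, 1.62 to 11.7). Suv39h2 had a fold of 6.01 with 9 fragments, Cbx3 5.35 with 10, Setdb2 5.11 with 6, Setdb1 5.09 with 6, Cbx1 5.05 with 8 and Ehmt1 4.80 with 7. All these intervals overlap, so the summits are not ordered by count.

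Ehmt2 and Trim28 had no CKO input peak at their own start sites. The one in the Ehmt2 window lay over the start of Slc44a4, beyond the far end of Ehmt2, with a fold of 4.15 on 7 fragments and no H3K4me3 peak. That in the Trim28 window lay at Ube2m, and Setdb1 had a further one at Cers2 (fold 6.23, 11 fragments, 5.49 to 19.7). Of the 10 H3K4me3 peaks over a start site of the 9 genes, 8 overlapped a CKO input peak, against 40.2% of the 8889 peaks over protein-coding starts and 58.7% of those with 97 or more fragments. Trim28, with the tallest H3K4me3 summit, was among the 2 without.

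The input calls rest on few fragments. Scaled to the background coverage of Ctrl input 1 the CKO peaks would hold 3.96 to 8.71 fragments, and no Ctrl input peak has fewer than 4. With peaks under the list's median fold dropped, 5 of the 9 genes had one, where 22.5% of all genes did. At q of 1e-05 or less 2 genes kept a CKO input peak, Setdb1 (the one at Cers2) and Cbx5 (the downstream start), where 7.98% of all genes had one, and with all inputs shortened to 1309 peaks 1 did, Cbx5, where 5.44% had one.

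**Figure D3:**
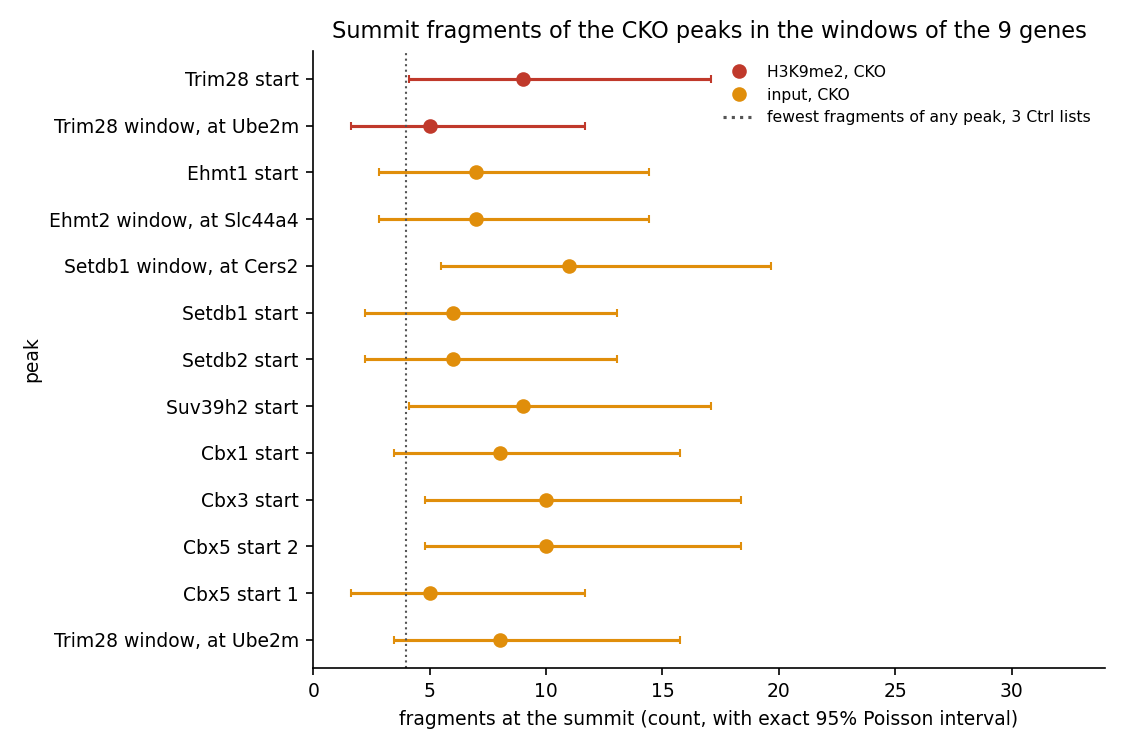
Points give the fragments at the summit (x axis, count) of each of the 13 CKO peaks in the windows, 2 of H3K9me2 and 11 of input, with exact 95% Poisson intervals. Counts run from 5 to 11, the intervals overlap, and the dotted line at 4 marks the smallest summit of any peak in the Ctrl H3K9me2 and input lists.

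By the highest fold in each of the 6 lists, with 0 where there was no peak, the genes most like Trim28 were Runx2, a transcription factor gene of bone formation, and Ube2w, a ubiquitin-conjugating enzyme gene, at Euclidean distances of 0.325 and 0.473 fold units. The input value of Trim28 in this match, a fold of 5.10, is that of the peak over the Ube2m start, and not of one at its own start. Runx2 had folds of 6.48 for H3K9me2 and 5.11 for input in CKO and 11.9 for H3K4me3 in Ctrl. A further 1107 genes, Runx2 and Ube2w among them, or 5.06% of all, had peaks in just these lists of the 6. The other 8 genes had peaks in the CKO input and H3K4me3 lists alone.

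The partners of the pathway, a list of 20 genes of H3K9 methylation and heterochromatin, were all found in the annotation. H3K4me3 lay within 2 kb of the start of 19 of the 19 with a start site in the table, beside 60.2% of all genes with one. Suv39h1, the paralogue of Suv39h2, was the highest at a fold of 17.1. In CKO 7 of the 20 had an H3K9me2 peak in the window and in Ctrl none, beside 19.4% and 6.34% of all genes. In the length range of the 9 genes, 5 of 16 partners had one in CKO, beside 18.4% of genes. The CKO input had a peak at 11 of 20, Ctrl input 1 at 5 and Ctrl input 2 at 2, beside 39.8%, 11.8% and 5.37% of all genes. At q of 1e-05 or less, 2 of the 20 kept an H3K9me2 peak in CKO, 2 a CKO input peak, 1 a peak in Ctrl input 1 and 0 a peak in Ctrl input 2. Shares of all genes at this q were 7.48% for H3K9me2 in CKO and 7.98% for the CKO input, and were not counted for the Ctrl inputs.

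Partners with an input-free H3K9me2 peak in CKO were 5 of the 20, beside 12.5% of all genes. Longer genes have wider windows, and in the length range of the 9 genes 3 of 16 partners had one, beside 10.4% of genes. Tasor, a subunit of the HUSH silencing complex, had a fold of 4.53 on 6 fragments near its start site and on H3K4me3. A CKO input peak, of fold 5.58 on 7 fragments, lay near the Tasor start too, also on H3K4me3. It did not overlap the H3K9me2 peak, so the Tasor start is not free of input peaks. Lbr, the lamin B receptor gene, whose protein binds HP1, had an H3K9me2 fold of 4.53 on 6 fragments at its own start. Adnp, whose protein joins HP1 in the ChAHP complex, had 5.18 on 7 fragments beside its start. Mecom and Prdm16, which encode PR-domain proteins described as H3K9 methyltransferases, had theirs in the gene body away from H3K4me3, with folds of 8.70 on 14 fragments and 4.96 on 7.

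**Figure D4:**
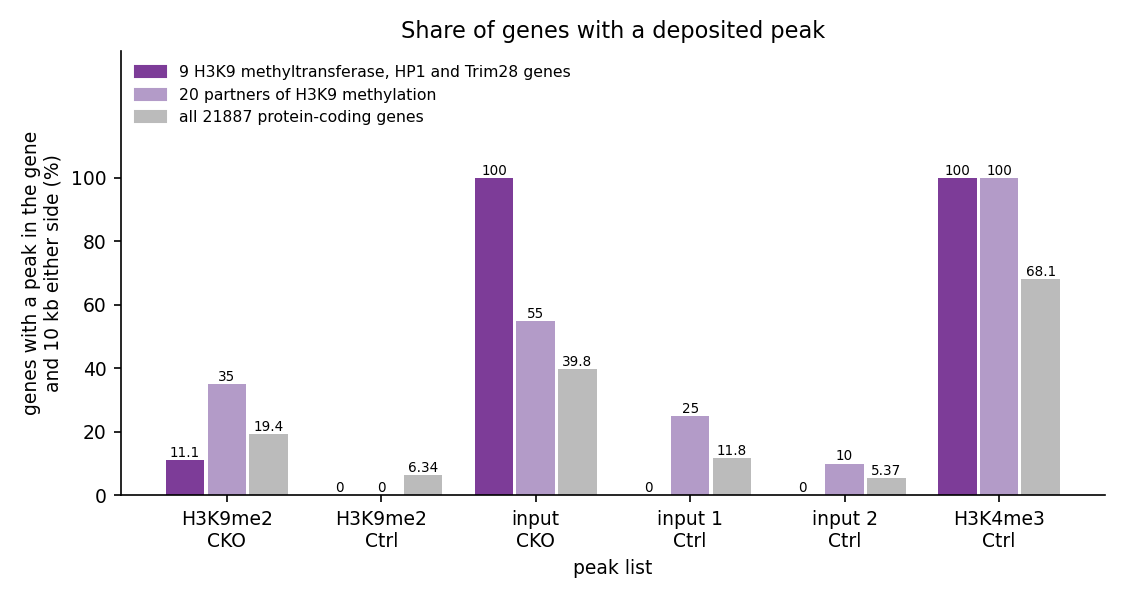
Bars give the percent of genes (y axis) with a deposited peak in the gene and 10 kb either side in each of the 6 lists, for the 9 genes, the 20 partners and all 21887 protein-coding genes. The CKO input reaches 100% of the 9 genes and 55% of the partners where 39.8% of all genes have a peak, and the Ctrl H3K9me2 list reaches none of either group.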

How the data were processed

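CUT&RUN peak lists of 6 libraries were used, grouped by their titles and genotypes, with 1 list per library. The submitters' processing notes name Bowtie2, MACS2 and the build mm10; their versions and settings, and any control used in calling, are not given. The authors deposited for each peak its fold (the ratio of summit to local background), its score, the −log10 of its p-value and of its q-value, and the offset of the summit from the peak start.

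Only peaks of the autosomes, X and Y were kept. Genes came from RefSeq GRCm38.p6, with 17492 of 21887 protein-coding genes having a start site in the promoter table; overlap meant 1 bp or more. Summit fragments n and local background b solve fold = (n + 1)/(b + 1) and the Poisson upper tail, within 0.1% of the deposited −log10 p, for 98.7% to 99.97% of peaks per list. This and the overlap search were tested on simulated data. In the promoter table, all 522 overlapping promoters of opposite strands were reverse complements.

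No test was made: each value is a description beside its share over all genes. The members and lists were chosen with earlier results of these data known. Named were the 9 genes, 6 partners (the highest H3K4me3 fold and those with input-free H3K9me2), the nearest genes in pattern and neighbours in the windows. Zfp644, Wiz, Kmt5b and Uhrf1 fall outside this rule and were picked after their values had been seen. Alternatives covered the window, q, fold, list length, overlap and each Ctrl input. Software was matplotlib 3.10.9, scipy 1.17.1, pandas 2.3.3, numpy 2.4.6 and Python 3.11.15.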

Additional observations from a re-analysis of the deposited data

How the results depend on the processing

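Of 51 alternatives to the main counts, 41 stayed within 1.5 times of them and 10 did not. Some of the 41 could not have moved. They re-counted a Ctrl H3K9me2 or Ctrl input count of 0 in smaller windows, in cut lists or without 1 of the Ctrl inputs. Others widened a count already at 9 of 9, as for H3K4me3 within 5 kb and the CKO input in windows of 20 kb. Overlap with H3K4me3 within 1 kb could only rise from 12 to 13 of 13, which is within 1.5 times. Of 39 alternatives to the other values, 18 stayed and 21 moved. The shares over all protein-coding genes among them were judged by the binomial interval of the main share instead. All of these moved, as from 39.8% to 44.3% for the CKO input among genes in the length range of the 9. The 18 include re-counts of the 0 partners with Ctrl H3K9me2 in smaller windows or shorter lists, which could not move. Among the alternatives that moved, partners with a CKO input peak were 7 when folds under the list's median were dropped, beside 22.5% of all genes. They were 2 with lists of equal length, beside 5.44%, in place of 11. With windows of 20 kb in place of 10 kb, 2 of the 9 genes had an H3K9me2 peak in CKO, the added one being Cbx5 (15.3 kb from the gene, fold 6.48), and 1 had a Ctrl input peak, Trim28 in Ctrl input 1, where 19.4% of all genes had a peak in either Ctrl input. With H3K9me2 lists of equal length, 0 of 9 had a CKO peak. Members with a CKO input peak were 2 at q of 1e-05 or less, 5 when folds under the list's median were dropped and 1 with lists of equal length. The partners with CKO H3K9me2 were 2 under each of these 3 settings, in place of 7. Over all genes the H3K9me2 shares under these settings were 7.48%, 9.86% and 5.64%. At q of 1e-05 or less, 3 of the 3 remaining H3K9me2 and input peaks overlapped H3K4me3, in place of 12 of 13. Both counts pool lists with unlike shares, and the 12 were 2 H3K9me2 and 10 input peaks. In the whole CKO lists, 1792 of 12832 H3K9me2 peaks and 5467 of 10931 input peaks overlapped H3K4me3. Shares of the whole lists at q of 1e-05 or less were not counted. Leaving out either Ctrl input left 0 of 9 with a Ctrl input peak and Trim28 as the 1 gene with input-free H3K9me2 on H3K4me3. Neither outcome could have differed, since neither Ctrl input had a peak there and removing fewer inputs can only keep the Trim28 peak. H3K4me3 was at the start of 7 of 9 at or above the median fold, without Ehmt2 and Cbx3. No paired analysis was possible because the groups share fewer than 2 replicate numbers and no test was made. Counts of 5 to 11 fragments per peak limit the CKO calls at the 9 genes. The start-site counts were added after the data had been seen.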

Other observations

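The following partners were picked after their values had been seen. Zfp644, whose product works with EHMT1 and EHMT2, had a peak near its start in 5 of the 6 lists, with folds of 4.38 for H3K9me2 in CKO, 5.60 for the CKO input, 6.69 and 4.37 for the Ctrl inputs and 8.72 for H3K4me3. The Ctrl H3K9me2 list was the exception. Wiz, another partner of that complex, had 13 summit fragments for H3K9me2 in CKO (fold 6.52) and 8 for the CKO input (4.51) at the same place. Kmt5b and Uhrf1 were the reverse of the 9 genes, with a peak in Ctrl input 1 (folds of 5.56 and 4.22) and none in the CKO input. The Ctrl input peak nearest to the 9 genes within 20 kb lay 12.8 kb from Trim28 (chr7:13043817-13044149, fold 5.77) and overlapped a CKO input peak of fold 6.23.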
